A study of Mus musculus with 20 samples.

Results

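The insulin-like growth factor (IGF) family was followed across genotype and treadmill running in mouse knee cartilage. The genes taken were Igf1, Igf2, Igf1r, Igf2r, Igfbp2, Igfbp3, Igfbp4, Igfbp5, Igfbp6 and Igfbp7, that is, every probe of the Illumina MouseWG-6 v2 BeadChip whose platform annotation gives 1 of these 10 symbols. They are 10 of 19057 gene symbols on the array and are covered by 24 of its 45281 probes. Of the 24 probes, 20 had a detection P under 0.05 on at least 3 of 20 arrays and were tested, and each of the 10 genes kept at least 1 of them. The other 4 probes, all for Igfbp7, were detected on 0 arrays.

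The study asked which genes of articular cartilage differ in mice without type 2 deiodinase (Dio2), the enzyme that turns the prohormone thyroxine into active thyroid hormone. There were 6 Dio2-/- Run, 3 Dio2-/- NoRun, 8 wild-type Run and 3 wild-type NoRun samples, each a pool of cartilage from 2 male mice of 4 to 6 months. Run groups ran on a treadmill for 3 weeks, 1 hour a day on 5 days a week, at 11 m per min and a 5 degree incline, and NoRun groups did not. The Dio2-/- line was in generation 6 of a backcross onto C57Bl/6, and the wild-type mice are given both as purchased and as littermates, so that strain background and supplier cannot be told apart from genotype in any difference below. Because the spread is that between pools of 2 animals, P-values refer to pools and not to single mice, and in a bulk sample fewer cells of a type and less RNA per cell cannot be told apart.

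IGF1 and IGF2 are secreted growth factors that act through the receptor tyrosine kinase IGF1R, while IGF2R has no kinase domain and carries IGF2 into the cell for degradation. Binding proteins of the IGFBP family hold IGFs in tissue fluid and matrix and can either block or prolong their action, and proteases release the growth factor again. In cartilage, IGF1 is known as a stimulus of proteoglycan and collagen synthesis by chondrocytes, and thyroid hormone and growth hormone both act on the IGF system in the growth plate.

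The 20 arrays had median probe intensities of 162.3 to 223, with 18469 to 21386 probes detected, and the correlation between arrays of 1 group lay between 0.935 and 0.993. Of 2 Dio2 probes, 1 was detected on 0 arrays. The other had a log2 intensity of 5.91 ± 0.47 in Dio2-/- pools (SD, n = 9, detected in 7) and 5.33 ± 0.26 in wild-type pools (SD, n = 11, detected in 2), and since the position of these probes against the deleted part was not known here, neither checks the labels. Of 16 listed chondrocyte genes 12 were tested and 6 detected on all 20 arrays (Col2a1, Acan, Col9a2, Comp, Chad and Sox9), while Col11a2 was detected on 17, Col9a1 on 13, Col11a1 on 8 and Cilp on 5. Lists of skeletal muscle and neutrophil genes were bright as well, with list means of 13.82 to 15.17 and 13.04 to 15.22. Pools 16 (Dio2-/- NoRun) and 24 (Dio2-/- Run) stood apart. Their neutrophil means were 13.04 and 14.09 against 14.94 to 15.22 in the other 18 pools, and their muscle means were 15.17 and 15.16 against 13.82 to 14.87. Pool 16 also had the fewest probes detected of the 20 arrays, 18469. Chips were bound up with groups as well, since no chip held both running groups of 1 genotype and the 3 Dio2-/- NoRun pools were alone on theirs.

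Among the brightest probe of each gene, the means of the 4 groups lay within 0.78 of each other on the log2 scale. The distance between the highest and the lowest group mean was 0.32 for Igf1r and 0.33 for Igf2r on the log2 scale, 0.38 for Igf1, 0.49 for Igfbp2, 0.50 for Igfbp4, 0.54 for Igfbp7, 0.55 for Igfbp3, 0.60 for Igf2, 0.71 for Igfbp6 and 0.78 for Igfbp5. The spread within groups was 0.17 for Igf1r and 0.61 for Igfbp6 (pooled SD), the smallest and the largest of the 10. For all 10 genes the distance between highest and lowest mean was larger than this SD. In each of the 10 genes, neighbours in the order of group means overlapped. Highest and lowest group did not overlap for Igf1r, Igf2r, Igfbp2, Igfbp4 and Igfbp6. These groups were picked by their own means, and how many of all tested genes separate in this way was not counted. Of the 20 probes, 16 were detected on all 20 arrays, while both Igfbp2 probes (16 and 10 arrays) and 2 of 4 Igf1r probes (11 and 7 arrays) were near background.

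**Figure D1:**
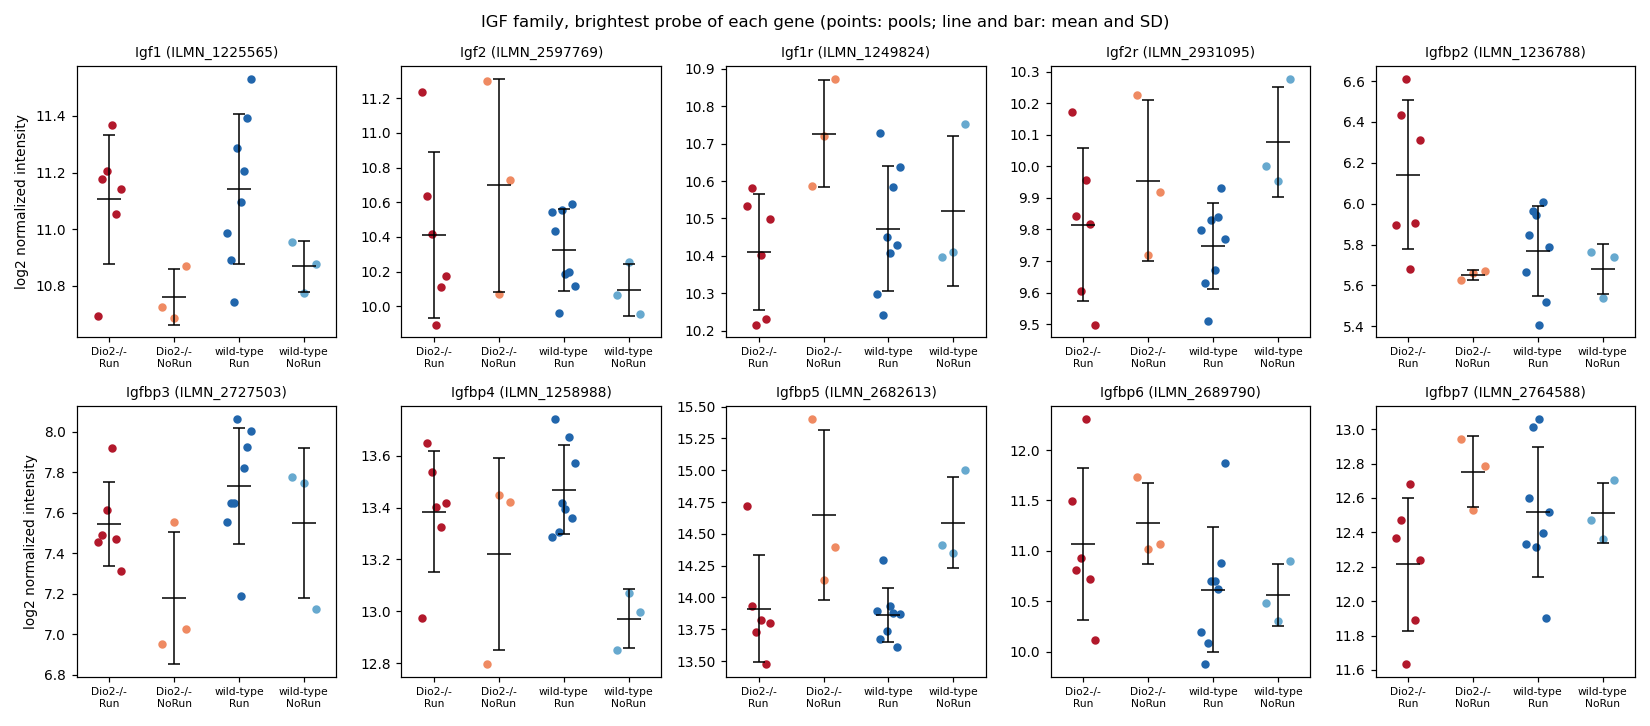
Normalized log2 intensity of the brightest probe of each of the 10 IGF family genes in 20 pools, by group (x axis); points are pools, and the line and bar are the mean and SD. For Igfbp5 12 of 14 Run pools sit below all 6 NoRun pools, and Igfbp4 lies lowest in the 3 wild-type NoRun pools and Dio2-/- pools 16 and 24.

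Genotype was compared at equal running and within each running group, running was compared within each genotype, and no member probe passed an adjusted P of 0.05 in any of these or in their interaction. For Dio2-/- against wild-type at equal running, 0 of 20 member probes were called against 0.00432% of all 23148 tested probes, and 2 of 20 had an unadjusted P under 0.05 against 14.3%. Within Run pools the genotype comparison called 0 of 20 (0% of all probes) and gave 1 of 20 at an unadjusted P under 0.05 (8.17%). Within NoRun pools it called 0 of 20 (0.0432% of all) and gave 0 of 20 unadjusted (10.4%). The member shares at an unadjusted P under 0.05 were 10%, 5% and 0%, each below the share of all probes.

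The running comparison called 0 of 20 member probes in Dio2-/- pools (0.134% of all probes) and 0 of 20 in wild-type pools (0.194%). In Dio2-/- pools 8 of 20 had an unadjusted P under 0.05, 6 of them lower in Run. That is 40% against 19.2% of all probes, but probes of 1 gene are not independent. All 3 Igfbp5 probes, correlated at r = 0.87 to 0.98, were among the 8, with probes of Igf1r, Igf1, Igfbp2 and Igfbp7. The 6 lower ones came from Igfbp5, Igf1r and Igfbp7 only, so the share does not describe the whole family. In wild-type pools 3 of 20 had an unadjusted P under 0.05 against 13.2%. The interaction called 0 of 20 (0% of all) with 0 of 20 unadjusted (5.13%), and the lowest adjusted P among members was 0.956. A further comparison, Run against NoRun over both genotypes with genotype in the fit, was added after results had been seen. It called 1 of 20 member probes, an Igfbp5 probe that was lower in Run, against 6.81% of all probes. An unadjusted P under 0.05 was reached by 7 of 20 against 26.7%, again with all 3 Igfbp5 probes among them. By the brightest probe of each gene, the median log2 fold change of the 10 members was -0.04 in that comparison, with 4 higher and 6 lower in Run, against a median of 0.01 over 12310 genes.

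**Figure D2:**
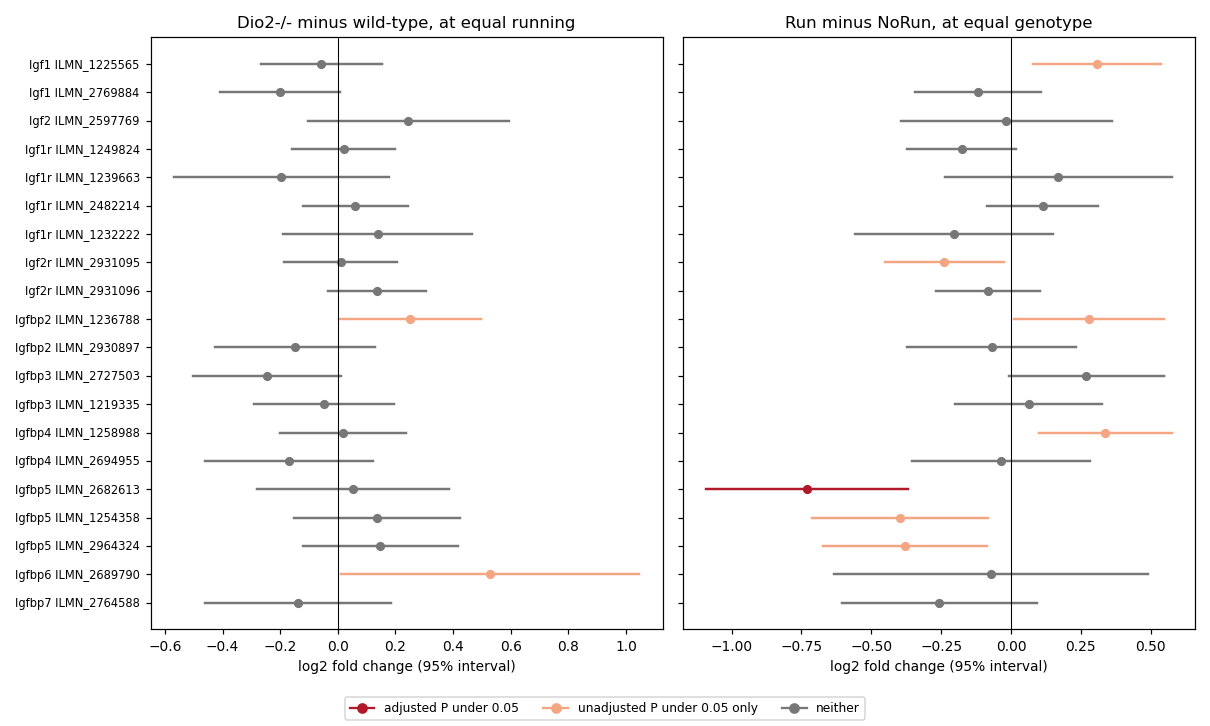
Log2 fold change with 95% interval (x axis) of the 20 tested member probes (rows), for Dio2-/- minus wild-type at equal running on the left and Run minus NoRun at equal genotype on the right. Only Igfbp5 ILMN_2682613 passes an adjusted P of 0.05, on the right at -0.73, and 8 further points are marked as passing only an unadjusted P of 0.05, 2 on the left and 6 on the right.

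Of the ligands, Igf1 was measured by 2 probes that did not move together (Pearson r = 0.30 over 20 arrays). The brighter probe, ILMN_1225565, read 10.69, 11.05, 11.14, 11.18, 11.21 and 11.37 in Dio2-/- Run pools, against 10.68, 10.73 and 10.87 in Dio2-/- NoRun pools. All but pool 24 of these Run pools were above the 3 NoRun pools. In wild-type Run pools its lowest, median and highest values were 10.74, 11.15 and 11.53, against 10.77, 10.88 and 10.95 in wild-type NoRun pools, and the groups overlapped. The log2 fold change for running was 0.35 in Dio2-/- (SE 0.16, 95% interval 0.01 to 0.68, unadjusted P = 0.0449, adjusted P = 0.249) and 0.31 over both genotypes (SE 0.11, interval 0.08 to 0.54, unadjusted P = 0.0104, adjusted P = 0.0822). Without pool 24 the adjusted P over both genotypes was 0.0262, and without pool 22 it was 0.0486. On leaving out other single pools it rose as far as 0.166, and among the other settings as far as 0.332. The second Igf1 probe, ILMN_2769884, ran the other way in both comparisons, with log2 fold changes of -0.20 in Dio2-/- and -0.12 over both genotypes.

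Igf2, the fetal growth factor that is silenced in most tissues after birth, was detected on all 20 arrays by its single probe. Its values were 9.90, 10.11, 10.17, 10.42, 10.63 and 11.24 in Dio2-/- Run, 10.07, 10.73 and 11.30 in Dio2-/- NoRun, 9.96 to 10.59 in wild-type Run and 9.96 to 10.26 in wild-type NoRun pools. The highest readings, 11.30 and 11.24, were those of pools 16 and 24, and the remaining 18 pools did not pass 10.73. Before normalization pool 24 was the highest as well, with an intensity of 2311.6. Pool 16 was not, at 1372.4 against 1371.7 in Dio2-/- NoRun pool 17, which read 10.07 after normalization. The log2 fold change of Dio2-/- over wild-type was 0.24 with an interval of -0.10 to 0.59 and an unadjusted P of 0.158. No Igf2 comparison reached an unadjusted P under 0.05.

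Igf1r, the signalling receptor, had 4 tested probes that gave no common picture, with correlations between -0.46 and 0.31 over 20 arrays. The brightest, ILMN_1249824, read 10.22 to 10.58 in the 6 Dio2-/- Run pools, against 10.59, 10.72 and 10.87 in Dio2-/- NoRun pools, so that these groups touched without overlap. In wild-type the groups overlapped, at 10.24 to 10.73 in Run and 10.40 to 10.75 in NoRun. The running effect in Dio2-/- was -0.32 (SE 0.13, interval -0.59 to -0.04, unadjusted P = 0.0264, adjusted P = 0.206). The dim probe ILMN_1232222 gave -0.51 (SE 0.24, interval -0.996 to -0.014, unadjusted P = 0.0443, adjusted P = 0.248), but it was detected on 7 arrays only. It was -0.94 without Dio2-/- NoRun pool 17 (adjusted P = 0.0324) and -0.22 without Dio2-/- NoRun pool 16 (adjusted P = 0.783). The other 2 probes gave 0.26 and -0.03 in the same comparison.

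For Igf2r, the clearance receptor for IGF2, both probes were detected on every array and correlated at r = 0.57. ILMN_2931095 read 9.51 to 9.93 in the 8 wild-type Run pools with a median of 9.78, against 9.95 to 10.28 in the 3 wild-type NoRun pools. The wild-type groups therefore did not overlap, whereas in Dio2-/- they did, at 9.50 to 10.17 in Run and 9.72 to 10.23 in NoRun. The running effect was -0.33 in wild-type (SE 0.14, interval -0.62 to -0.03, unadjusted P = 0.0303, adjusted P = 0.318) and -0.24 over both genotypes (SE 0.10, interval -0.45 to -0.03, unadjusted P = 0.0293, adjusted P = 0.139). The second probe gave -0.09 and -0.08 in these comparisons, with the same sign.

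Igfbp5, which binds matrix and is made by muscle, bone and cartilage cells, carried the clearest difference in the family. Its probe ILMN_2682613 read 13.47, 13.73, 13.80, 13.82, 13.93 and 14.72 in Dio2-/- Run pools, against 14.14, 14.39 and 15.41 in Dio2-/- NoRun pools. In wild-type Run pools the lowest, median and highest values were 13.61, 13.87 and 14.29, against 14.35, 14.41 and 15.003 in wild-type NoRun pools. The wild-type groups did not overlap, and in Dio2-/- the single overlapping pool was pool 24. Taking both genotypes together, 12 of 14 Run pools lay below the lowest NoRun pool, and the exceptions were pool 24 and wild-type Run pool 22. Over both genotypes Igfbp5 fell in Run by 0.73 on the log2 scale, a 1.66-fold difference (SE 0.17, interval -1.09 to -0.37, unadjusted P = 0.000401, adjusted P = 0.0232, limma).

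In each genotype taken alone the log2 fold change was -0.73 in Dio2-/- (SE 0.26, interval -1.27 to -0.20, unadjusted P = 0.00988, adjusted P = 0.142) and -0.73 in wild-type (SE 0.25, interval -1.24 to -0.21, unadjusted P = 0.00796, adjusted P = 0.208), where neither passed adjustment. The difference between these effects was -0.01 with an interval of -0.75 to 0.74. The other Igfbp5 probes, ILMN_1254358 and ILMN_2964324, followed ILMN_2682613 with r = 0.90 and 0.87 and each other with r = 0.98. Over both genotypes they gave -0.40 (adjusted P = 0.101) and -0.38 (adjusted P = 0.0942), and in Dio2-/- -0.58 (unadjusted P = 0.014, adjusted P = 0.162) and -0.55 (unadjusted P = 0.013, adjusted P = 0.158). In wild-type they gave -0.23 and -0.22 (unadjusted P = 0.284 and 0.262), so the size of the wild-type difference depended on the probe. Without pool 24 both passed adjustment over both genotypes (adjusted P = 0.0345 and 0.0335), whereas without pool 16 both were at -0.24 (adjusted P = 0.300 and 0.279). For Dio2-/- against wild-type at equal running the 3 Igfbp5 probes gave log2 fold changes of 0.05, 0.14 and 0.15, each with an interval that held 0.

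The call for Igfbp5 rested on few NoRun pools. Without Dio2-/- NoRun pool 16 the effect over both genotypes was -0.57 with an adjusted P of 0.063, and without wild-type NoRun pool 15 it was -0.64 with an adjusted P of 0.0776. Leaving out pools 16 and 24 together gave -0.64 with an adjusted P of 0.00422. In Dio2-/- alone the effect was -0.35 without pool 16 (adjusted P = 0.635) and -0.89 without pool 24 (adjusted P = 0.0186), where the other probes also passed (adjusted P = 0.0284 and 0.0294). Without pool 16 these 2 probes were both at -0.26 in Dio2-/- (adjusted P = 0.682 and 0.662). With chip as a fixed term the effect over both genotypes was -1.38 with an adjusted P of 0.286. That fit could compare groups only on the 2 chips that held more than 1 group. On the 1 chip that held both a Run and NoRun pools, Dio2-/- Run pool 35 lay 0.79 below the mean of the 3 wild-type NoRun pools. On the other, the mean of Dio2-/- Run pools 24 and 25 lay 0.59 above wild-type Run pool 23. Lists of cell type genes also moved between Run and NoRun pools over both genotypes. Of 12 chondrocyte genes 10 were lower in Run (1 called), with list means of 9.38 ± 0.29 in Run pools (SD, n = 14) and 9.66 ± 0.19 in NoRun pools (SD, n = 6). Of 12 skeletal muscle genes 10 were lower in Run (1 called), with list means of 14.35 ± 0.41 in Run and 14.59 ± 0.38 in NoRun pools. All 5 adipocyte genes were lower in Run (2 called), with list means of 8.63 ± 0.31 in Run and 9.15 ± 0.56 in NoRun pools. Lower in Run were also 5 of 7 fibroblast and synovium genes (1 called, median log2 fold change -0.33) and 3 of 3 tendon genes (0 called, -0.30), while 10 of 12 neutrophil genes (0 called, 0.21) and 5 of 6 macrophage genes (0 called, 0.24) were higher. The part of these lists in the Igfbp5 difference was not tested.

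**Figure D3:**
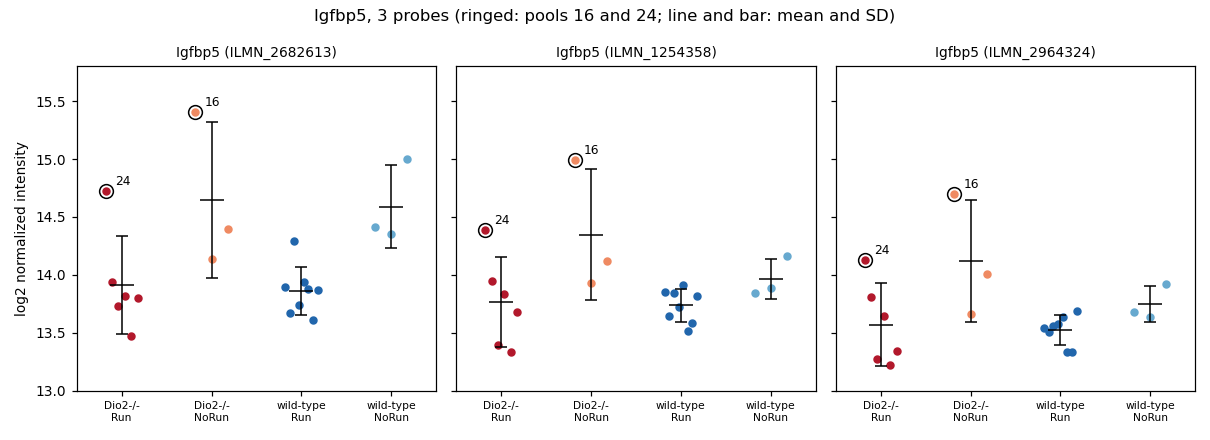
Normalized log2 intensity of the 3 Igfbp5 probes in 20 pools by group (x axis); points are pools, line and bar are mean and SD, and rings mark pools 16 and 24. On ILMN_2682613 12 of 14 Run pools lie below all NoRun pools, with a mean of 13.88 in 14 Run pools and 14.62 in 6 NoRun pools, and pools 16 and 24 are the highest of their groups on all 3 probes.

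Igfbp5 and Igfbp4 are shown by the 250 bases before their start sites (RefSeq, GRCm38.p6, on the strand of the gene), since their probes ILMN_2682613 and ILMN_1258988 had the lowest unadjusted P-values of the family for running. Igfbp5 lies at chr1:72874866-72875115 on the minus strand and Igfbp4 at chr11:99040994-99041243 on the plus strand. Capitals mark TATAAA in Igfbp4, and in Igfbp5 the motif GCCNNNGGC, a consensus for AP-2 factors, and the A/T-rich run TATTTAA just after it.
Igfbp5: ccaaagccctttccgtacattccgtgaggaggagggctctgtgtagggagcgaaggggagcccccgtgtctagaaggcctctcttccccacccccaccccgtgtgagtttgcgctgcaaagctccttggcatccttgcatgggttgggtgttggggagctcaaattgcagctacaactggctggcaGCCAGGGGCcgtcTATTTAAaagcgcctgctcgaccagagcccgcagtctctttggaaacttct
Igfbp4: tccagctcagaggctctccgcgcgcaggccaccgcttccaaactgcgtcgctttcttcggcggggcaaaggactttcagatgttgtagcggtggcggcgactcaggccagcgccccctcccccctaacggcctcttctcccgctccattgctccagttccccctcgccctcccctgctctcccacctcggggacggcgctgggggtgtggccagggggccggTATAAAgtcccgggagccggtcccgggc
Searched on both strands in 32851 RefSeq windows of 250 bases, TATAAA was held by 12.4% of windows, TATTTAA by 4.18%, GCCNNNGGC by 13.7%, the GC box GGGCGG by 32.7% and AGGTCA, the hexamer bound by thyroid hormone receptors, by 4607 windows. TATAAA stood 28 to 23 bases before the start of Igfbp4, and TATTTAA 51 to 45 bases before that of Igfbp5. Neither window held GGGCGG or AGGTCA, whereas AGGTCA was found before Igf1, Igf2, Igf1r and Igf2r among the 14 windows of the 10 genes. Igf2 and Igfbp2 had more than 1 window each, and so more places for a match. Such matches describe the letters only. Igfbp5 neighbours Igfbp2 on chromosome 1, with 0 genes annotated between their starts in GRCm38.p6.

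Igfbp4, which holds IGFs back from their receptor until it is cleaved by PAPPA, was read differently by its 2 probes. ILMN_1258988 gave 13.29 to 13.74 in the 8 wild-type Run pools with a median of 13.41, against 12.85 to 13.07 in the 3 wild-type NoRun pools, so that the wild-type groups did not overlap. In Dio2-/- the groups overlapped, at 12.97 to 13.65 in Run and 12.79, 13.42 and 13.45 in NoRun. The running effect was 0.50 in wild-type (SE 0.15, interval 0.18 to 0.82, unadjusted P = 0.0042, adjusted P = 0.169) and 0.34 over both genotypes (SE 0.11, interval 0.10 to 0.58, unadjusted P = 0.00773, adjusted P = 0.0717). Without pools 16 and 24 the adjusted P was 0.0228 in wild-type and 0.0491 over both genotypes. Over both genotypes it was 0.0487 with the values as normalized by the authors, 0.0183 without pool 24 and 0.0356 without Dio2-/- NoRun pool 17. Going the other way, it rose as far as 0.468 in wild-type and 0.195 over both genotypes on leaving out 1 pool. Among the other settings it reached 0.504 in each of these comparisons. The second probe, ILMN_2694955, gave -0.12 in wild-type with 13.13 to 13.61 in Run and 13.42, 13.49 and 13.51 in NoRun pools. The 2 probes correlated at r = 0.53 over 20 arrays and at 0.04 over the 18 without pools 16 and 24, so a direction for Igfbp4 as a gene was not given by these data.

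Igfbp2, a binding protein with preference for IGF2, was close to background throughout. ILMN_1236788 read 5.68, 5.90, 5.91, 6.31, 6.44 and 6.61 in Dio2-/- Run pools, against 5.62, 5.66 and 5.67 in Dio2-/- NoRun, 5.41 to 6.01 in wild-type Run and 5.54, 5.74 and 5.76 in wild-type NoRun pools. The 3 highest readings of the 20 were all Dio2-/- Run pools. The log2 fold change of Dio2-/- over wild-type was 0.25 at equal running (SE 0.12, interval 0.003 to 0.50, unadjusted P = 0.0476, adjusted P = 0.344) and 0.37 within Run (SE 0.14, interval 0.09 to 0.66, unadjusted P = 0.0137, adjusted P = 0.536), and the running effect in Dio2-/- was 0.49 (SE 0.18, interval 0.11 to 0.86, unadjusted P = 0.0135, adjusted P = 0.16). Over both genotypes running gave 0.28 (SE 0.13, interval 0.01 to 0.55, unadjusted P = 0.0421, adjusted P = 0.17). The other probe, ILMN_2930897, gave -0.15 for genotype, and it was detected on 10 arrays. The genotype difference of the first probe was 0.08 without background correction and 0.05 in the values as normalized by the authors. Its other differences shrank as well. Their smallest values under the alternatives were 0.07 for genotype within Run, 0.08 for running in Dio2-/- and 0.05 for running over both genotypes.

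Igfbp3, the main carrier of IGF1 in blood, did not reach an unadjusted P under 0.05 in any comparison. Its brighter probe, ILMN_2727503, had means of 7.54 ± 0.21 (SD) in the 6 Dio2-/- Run pools, 7.18 ± 0.33 in the 3 Dio2-/- NoRun pools, 7.73 ± 0.29 in the 8 wild-type Run pools and 7.55 ± 0.37 in the 3 wild-type NoRun pools. Ranges of 6.95 to 7.92 in Dio2-/- and 7.12 to 8.06 in wild-type overlapped broadly. The genotype difference was -0.24 (interval -0.50 to 0.01, unadjusted P = 0.0604, adjusted P = 0.364), and the other probe gave -0.05.

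Igfbp6, which binds IGF2 in preference to IGF1, had the widest range of the 20 probes, 2.44 on the log2 scale. It read 10.12, 10.72, 10.81, 10.92, 11.50 and 12.31 in Dio2-/- Run and 11.02, 11.07 and 11.74 in Dio2-/- NoRun pools, against 9.87, 10.66 and 11.88 as lowest, median and highest of wild-type Run and 10.30, 10.48 and 10.90 in wild-type NoRun pools. Dio2-/- NoRun pools lay above wild-type NoRun pools with no overlap, while the Run groups overlapped. At equal running the genotype difference was 0.53, a 1.44-fold difference (SE 0.25, interval 0.01 to 1.05, unadjusted P = 0.046, adjusted P = 0.342). It was 0.37 without Dio2-/- Run pool 33 and 0.39 without pools 16 and 24. On the chip that held Run pools of both genotypes the difference was 0.45 (2 Dio2-/- pools against 1 wild-type pool), and on the chip that held Dio2-/- Run pool 35 and the 3 wild-type NoRun pools it was -0.44. The highest readings were 12.31 in Dio2-/- Run pool 33 and 11.88 in wild-type Run pool 31. Next came 11.74 in Dio2-/- NoRun pool 16 and 11.50 in Dio2-/- Run pool 24. Fibroblast and synovium list means of these pools were, in that order, 11.69, 11.62, 11.50 and 11.48. The range over 20 pools was 10.79 to 11.75, and the pool at its top, wild-type NoRun pool 15, read 10.90. Tendon list means of pools 33, 31, 16 and 24 were 9.20, 8.62, 9.14 and 9.01. Their skeletal muscle list means were 14.10, 13.82, 15.17 and 15.16. The pools were picked by their Igfbp6 readings. Between genotypes, at equal running, 11 of 12 skeletal muscle genes (median log2 fold change 0.39) and 2 of 3 tendon genes (0.45) were higher in Dio2-/-, and 12 of 12 neutrophil genes (-0.42), 6 of 6 macrophage genes (-0.28) and 5 of 7 fibroblast and synovium genes (-0.02) were lower, with 0 called in each list. Of the other lists, 9 of 12 chondrocyte genes (0.12) and 5 of 7 endothelium genes (0.06) were higher. Lower were 9 of 10 osteoblast and osteocyte genes (-0.21) and 3 of 5 adipocyte genes (-0.07), again with 0 called. The part of these lists in the Igfbp6 differences was not tested.

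Igfbp7, a secreted protein of low affinity for IGFs, was bright on 1 of its 5 probes, ILMN_2764588. This probe read 11.63, 11.89, 12.24, 12.37, 12.47 and 12.68 in Dio2-/- Run pools, against 12.53, 12.78 and 12.94 in Dio2-/- NoRun pools, with 5 of 6 Run pools below all 3 NoRun pools. In wild-type the groups overlapped, at 11.90 to 13.06 in Run and 12.36 to 12.71 in NoRun. The running effect in Dio2-/- was -0.54 (SE 0.23, interval -1.03 to -0.05, unadjusted P = 0.0321, adjusted P = 0.221), and the interaction was -0.54 with an interval of -1.22 to 0.13.

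Pools 16 and 24, which stood apart on the cell type lists, were also compared with the other 18 pools on the member probes. Both lay above the other 18 pools on 3 of 20 probes (Igf2 and Igfbp5 ILMN_1254358 and ILMN_2964324) and below all of them on 3 others (Igf1r ILMN_1239663, Igfbp3 ILMN_1219335 and Igfbp4 ILMN_2694955). On 6 probes 1 of the pools was outside the range of the rest, and on 8 both were inside it. The share of all tested probes outside that range was not counted, so these places are not shown to be particular to the family. Igf1r ILMN_1239663 stood at 7.96 and 7.86 in pools 16 and 24 against 8.60 to 9.43 in the others. Igfbp4 ILMN_2694955 stood at 12.49 and 12.45 against 13.13 to 13.72.

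**Figure D4:**
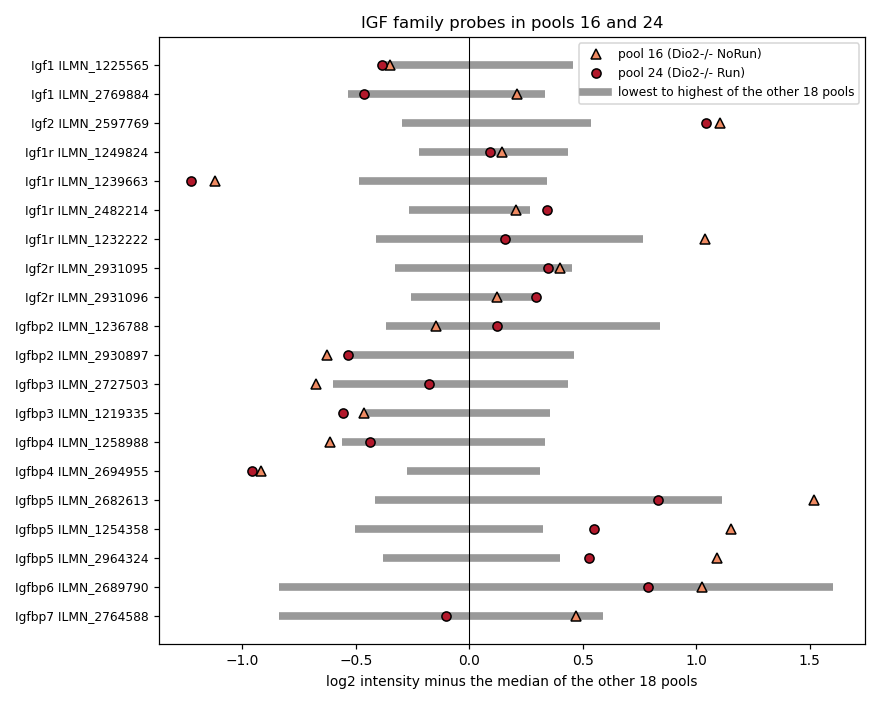
Log2 intensity of the 20 tested member probes (rows) in pools 16 (triangle) and 24 (circle) minus the median of the other 18 pools (x axis); the bar spans the lowest to the highest of those 18. Both pools lie outside the bar on the same side for 6 probes, above it for Igf2 and 2 Igfbp5 probes and below it for 1 probe each of Igf1r, Igfbp3 and Igfbp4.

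For each member, the 3 genes whose brightest probe followed it most closely over the 20 arrays were sought among 12300 other genes. These correlations are descriptions only, over arrays that share pools 16 and 24 and the chips. Igfbp5 was followed by Zbtb20 (r = 0.95), Atp2a2 (r = 0.95), a calcium pump of slow muscle and many other tissues, and Auts2 (r = 0.94), and the r values were 0.92, 0.90 and 0.89 without the 2 pools. Igfbp6 was followed by Nbl1, a secreted BMP antagonist (r = 0.93), Ephx1 (r = 0.90) and Pamr1 (r = 0.90). Igf2 was followed by Cpeb3 (r = 0.88), Dysf, a membrane repair protein of muscle (r = 0.88), and Gstm2 (r = 0.87), and these were 0.72, 0.71 and 0.76 without the pools. Igf1 was followed by 1810009A15Rik (r = 0.89), Tm2d3 (r = 0.88) and Chmp2a (r = 0.87), and Igf2r by Rmdn1 (r = 0.91), Mdm2 (r = 0.86) and Cyb5b (r = 0.85). Igfbp4 was followed by Ppp2ca (r = 0.87), Derl3 (r = 0.87) and Slc7a8 (r = 0.86), and Igfbp7 by Fndc3b (r = 0.83), Adap1 (r = 0.82) and Tmem263 (r = 0.82). Lower values were found for Igfbp3 with Pea15a (r = 0.84), Caml (r = 0.82) and St6galnac6 (r = 0.80), for Igfbp2 with H2ac6 (r = 0.81), Chga (r = 0.68) and Gdf9 (r = 0.67), and for Igf1r with Nr4a2 (r = 0.77), Dlg5 (r = 0.74) and Wipf2 (r = 0.73).

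Of 46 further genes of the IGF pathway 32 were tested. For Dio2-/- against wild-type 0 were called (0.00432% of all probes), and 3 were higher and 4 lower at an unadjusted P under 0.05 (14.3% of all probes in either direction), with a median log2 fold change of 0.04. Pappa, the protease that cleaves IGFBP4, averaged 8.40 ± 0.40 in Dio2-/- pools (SD, n = 9). In wild-type pools it averaged 8.89 ± 0.21 (SD, n = 11). Its log2 fold change was -0.48 (SE 0.14, unadjusted P = 0.00203, adjusted P = 0.203). Under the alternatives it lay between -0.77 (chip as a fixed term) and -0.24 (values as normalized by the authors). The value of -0.77 rests on the chip that held Run pools of both genotypes. Socs2, which damps growth hormone signalling, gave -0.31 (unadjusted P = 0.0092, adjusted P = 0.253) and Pik3cb, a catalytic subunit of PI3 kinase, gave -0.15 (unadjusted P = 0.0473). Adam12, a further IGFBP protease, was near background, with means of 5.74 in Dio2-/- (detected in 6 of 9) and 6.03 in wild-type pools (detected in 10 of 11), and its log2 fold change was -0.27 (unadjusted P = 0.0414) but -0.05 in the values as normalized by the authors. Higher were Tsc2, a brake on mTOR, at 0.22 (unadjusted P = 0.00746) and Eif4ebp1, a translation repressor under mTOR, at 0.23 (unadjusted P = 0.0474). Gh, the pituitary growth hormone, had a lowest, median and highest value of 5.34, 8.57 and 11.64 in Dio2-/- and 5.23, 5.71 and 8.85 in wild-type pools, a log2 fold change of 2.20 (SE 0.76, unadjusted P = 0.00842, adjusted P = 0.252) with broadly overlapping groups, and it was 1.02 in the values as normalized by the authors. Gh was detected in 7 of 9 Dio2-/- and 6 of 11 wild-type pools, so part of the pools were at background.

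For running in wild-type 1 of the 32 genes was called, lower in Run (0.194% of all probes were called), and 2 were higher and 3 lower at an unadjusted P under 0.05 (13.2% of all probes in either direction). The called gene was Socs2, which averaged 11.04 ± 0.20 in wild-type Run (SD, n = 8) and 11.82 ± 0.17 in wild-type NoRun pools (SD, n = 3), with a log2 fold change of -0.78 (SE 0.15, adjusted P = 0.0443). In Dio2-/- it gave -0.38 (unadjusted P = 0.0287, adjusted P = 0.211), and over both genotypes it fell by 0.59 (SE 0.12, adjusted P = 0.0147), where leaving out any 1 pool kept the call but chip as a fixed term did not (-1.73, adjusted P = 0.0673). The wild-type call was lost on leaving out any of 15 of the 20 pools, with adjusted P-values up to 0.269. Mtor, the kinase at the centre of the growth response, gave -0.48 (unadjusted P = 0.000329, adjusted P = 0.0719) and Foxo1, a transcription factor held back by AKT, gave -0.32 (unadjusted P = 0.0451). With chip as a fixed term Foxo1 was at -0.83, and this value, like that of Socs2, rests on the few pools of 2 chips. Shc1, an adaptor of the receptor, gave 0.25 (unadjusted P = 0.0406) and Adam12 0.40 (unadjusted P = 0.0483), which was 0.075 in the values as normalized by the authors.

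For running in Dio2-/- 0 of the 32 genes were called (0.134% of all probes), and 0 were higher and 4 lower at an unadjusted P under 0.05 (19.2% of all probes in either direction). Besides Socs2 these were Pdpk1, the kinase that activates AKT, Pik3r1, a regulatory subunit of PI3 kinase, and Irs1, an adaptor of the receptor. Pdpk1 averaged 9.91 ± 0.72 in Dio2-/- Run (SD, n = 6) and 11.19 ± 0.57 in Dio2-/- NoRun pools (SD, n = 3), a log2 fold change of -1.28 (SE 0.34, unadjusted P = 0.00119, adjusted P = 0.0803). Pik3r1 gave -0.66 (unadjusted P = 0.00456, adjusted P = 0.11). Irs1 was detected in 0 of 6 Run and 2 of 3 NoRun pools, so that its level in Run is only bounded by the background. In the same comparison all 5 adipocyte genes were lower in Run (median log2 fold change -1.05), and 12 of 12 neutrophil genes (0.48) and 5 of 6 macrophage genes (0.49) were higher. Lower were also 3 of 3 tendon (-0.24), 5 of 7 fibroblast and synovium (-0.21), 8 of 12 chondrocyte (-0.19), 9 of 12 skeletal muscle (-0.04) and 4 of 7 endothelium genes (-0.02). Osteoblast and osteocyte genes were split, with 5 of 10 lower (0.05). In each list 0 were called, and the part of the lists in these differences was not tested. Over both genotypes 5 of the 32 genes were lower and 0 higher at an unadjusted P under 0.05 (26.7% of all probes in either direction), of which Socs2 alone was called (6.81% of all probes were called). The others were Pdpk1 at -0.73 (adjusted P = 0.0778), Mtor at -0.27 (adjusted P = 0.0748), Foxo1 at -0.29 (adjusted P = 0.0946) and Pik3r1 at -0.37 (adjusted P = 0.13). Mtor averaged 9.90 in Dio2-/- Run and 9.94 in Dio2-/- NoRun pools, so its fold came mostly from wild-type. In wild-type Run and NoRun pools Pdpk1 averaged 10.33 and 10.56, and Pik3r1 12.70 and 12.80. The folds of Pdpk1 and Pik3r1 thus came mostly from Dio2-/-.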

How the data were processed

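Knee cartilage RNA of 20 pools of 2 mice was hybridised to Illumina MouseWG-6 v2 BeadChips and read with GenomeStudio, per the submitters' processing notes. The deposited table holds probe intensity values that were not normalized, with a detection P-value for each, and a second deposited table holds log2 values normalized by the authors, used as an alternative. Per the study's methods, where a sample had been run on 2 chips, the authors dropped the array that detected fewer probes.

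Intensities were background-corrected with normexp, quantile-normalized and log2-transformed (neqc, offset 16, limma 3.58.1, R 4.3.3). Probes with a detection P under 0.05 on at least 3 arrays were kept, 23148 of 45281. Symbols came from the platform annotation, with 1 symbol for 34885 probes, several for 18 and none for 10378. The genotype effect came from a fit of genotype and running. The other comparisons came from a fit of the 4 groups, with Benjamini-Hochberg adjustment over all tested probes and 95% intervals. Unadjusted P-values and intervals are those of the limma fit. The brightest tested probe by mean over the arrays stood for a gene. Values of single pools are named by the sample number in the labels. Folds are given for member and pathway probes with an unadjusted P under 0.05. The script was tested on simulated data. The number of arrays limits the precision.

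Members, gene lists and promoter motifs were chosen with earlier results of these data known. Running over both genotypes, and the alternatives for pathway genes, were added after results had been seen. Alternatives were no background correction, cyclic loess, the values normalized by the authors, stricter detection filters, an intensity trend with robust fit, array weights, chip as a random or fixed block, and leaving out pools.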

Additional observations from a re-analysis of the deposited data

Results flagged for a closer look

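In 40 groups of pools, that is, each of the 20 member probes in Dio2-/- Run and in wild-type Run, 5 held a pool set apart from the rest of its group by Dixon's criterion, which chance meets in about 1 in 20 groups. Of these, 4 were Dio2-/- Run pool 24. It read 7.86 for Igf1r ILMN_1239663 against 8.73 to 9.24 in the other 5 pools, 6.56 for Igfbp3 ILMN_1219335 against 6.98 to 7.17, 12.45 for Igfbp4 ILMN_2694955 against 13.29 to 13.55, and 14.72 for Igfbp5 ILMN_2682613 against 13.47 to 13.93. The remaining one was wild-type Run pool 22, which read 14.29 for Igfbp5 ILMN_2682613 against 13.61 to 13.93 in the other 7 pools.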

How the results depend on the processing

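Over 33 results for single probes and 967 alternative values, 909 kept direction and side of the threshold, 36 passed it only under the alternative, 21 lost it and 1 reversed. Most of the 33 were not called to begin with, and for these keeping the side meant staying uncalled. Called were Socs2 in wild-type, and Socs2 and Igfbp5 ILMN_2682613 over both genotypes. All 21 losses fell on these, so the 909 do not measure how stable a call was. The reversal was Socs2 for genotype, at 0.42 with chip as a fixed block (adjusted P = 0.636), which for genotype rests on 1 chip. Member probes called numbered 0 under every alternative for genotype at equal running and for genotype in Run. With array weights, whose estimation stopped before converging, they were 5 for genotype in NoRun, 2 for running in wild-type, 8 for running in Dio2-/-, 2 for the interaction and 6 for running over both genotypes. Without pools 16 and 24 they were 2 for running in wild-type and 2 over both genotypes. Over both genotypes they were also 2 with the values normalized by the authors and 0 with chip as a fixed block, and 0 to 5 on leaving out 1 pool, against 0 to 3 for running in Dio2-/-.

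Of all probes, genotype called 1, but 3 without background correction, 3 with cyclic loess, 2 with the authors' values, 0 with detection on all 20 arrays, 2 with an intensity trend, 1439 with weighted arrays, 5 without pools 16 and 24 and 1 to 3 on leaving out 1 pool. Genotype in Run called 0, but 19 with array weights, 1 with chip fixed, 2 without pools 16 and 24 and 0 to 21 on leaving out 1 pool. Genotype in NoRun called 10, but 30 without background correction, 32 with the authors' values, 3374 with array weights, 0 with chip random, 48 without pools 16 and 24 and 0 to 25 on leaving out 1 pool. Running in wild-type called 45, but 148 without background correction, 70 with cyclic loess, 177 with the authors' values, 95 with detection on all arrays, 2071 with array weights, 7 with chip random, 8 with chip fixed, 910 without pools 16 and 24 and 3 to 236 on leaving out 1 pool. Running in Dio2-/- called 31, but 7 without background correction, 5 with cyclic loess, 8 with the authors' values, 14 with detection on all arrays, 5881 with array weights, 2 with chip random, 213 without pools 16 and 24 and 1 to 2547 on leaving out 1 pool. The interaction called 0, but 1 with the authors' values, 827 with array weights, 13 without pools 16 and 24 and 0 to 11 on leaving out 1 pool. Running over both genotypes called 1577, but 6315 with array weights, 565 with chip random, 8 with chip fixed, 2636 without pools 16 and 24 and 93 to 3959 on leaving out 1 pool. The causes were not tested. No value was had with chip as a fixed block for genotype in NoRun, running in Dio2-/- or the interaction, since the Dio2-/- NoRun pools were alone on their chip. Elsewhere that block left only the 2 chips with more than 1 group to compare, and for genotype only 1 of them. No paired analysis was possible because the groups share no replicate numbers. Signal near background limits both Igfbp2 probes, 2 Igf1r probes, Adam12, Irs1 and, in part of the pools, Gh.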
